A study of Homo sapiens with 9 samples.

Results

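The keratins described here were 10 genes chosen by name out of 26869 genes in the SLAM-Seq table. No rule on their values was used, but earlier results of these data were known. The members KRT5, KRT14, KRT15, KRT17, KRT6A and KRT6B are typical of basal, stratified or activated epithelium. KRT7, KRT8, KRT18 and KRT19 are typical of simple, luminal epithelium. All cells were MCF10A, a non-transformed human mammary epithelial line, in which JUN had been knocked out and replaced by a JUN protein fused to an auxin-inducible degron (AID), together with the TIR1 protein that recognises auxin. The medium of every group held horse serum, insulin, hydrocortisone, cholera toxin and human EGF. The no 4sU Ctrl group (3 libraries) received no 4-thiouridine (4sU), and the labels do not give its solvent. The DMSO 4sU group (3 libraries) received the solvent DMSO and 100 µM 4sU for 1 h. The IAA 4sU group received 100 µM of the auxin indole-3-acetic acid (IAA) for 1 h to degrade JUN, followed by 100 µM 4sU for 1 h. The knockout cells had been isolated as clones from single cells, and the fusion protein and TIR1 were then brought in by infection.

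Keratins are the intermediate filament proteins of epithelial cells. A filament needs a type II keratin (here KRT5, KRT6A, KRT6B, KRT7 and KRT8) together with a type I keratin (here KRT14, KRT15, KRT17, KRT18 and KRT19), and the proteins are used in characteristic partnerships. KRT5 with KRT14 marks basal cells of stratified and glandular epithelia, KRT6A and KRT6B with KRT16 or KRT17 appear in wounded or activated epithelium, and KRT8 with KRT18 is the founding set of simple epithelia. In the mammary gland KRT5 and KRT14 are used to name basal cells, and KRT8, KRT18 and KRT19 to name luminal cells.

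2 measures were read at the 3′ end of each mRNA. CPM, the reads of a gene scaled to the size of the library, follow total mRNA. The T>C conversion rate is the share of T positions read as C. 4sU built into RNA during the pulse is read as C after alkylation, so the rate in labelled cells above that in unlabelled cells follows the newly made share of an mRNA. Library totals were between 18997637 and 24014195 reads. The 3 IAA 4sU columns were identical in every row and were counted as 1 library, so IAA values have no replicate check and no p-value. Over 7368 genes with at least 200 reads on average, the median rate was between 0.0543% and 0.0561% in the libraries without 4sU. It was 0.232%, 0.176% and 0.175% in DMSO 4sU replicates 1, 2 and 3 and 0.214% with IAA. DMSO 4sU replicate 1 therefore stood above the other two, and in total mRNA the IAA library was also closest to it (Pearson correlation of log2 CPM 0.991, against 0.977 and 0.984, over 11474 genes).

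Most but not all epithelial markers were read in these libraries. Of 8 such markers 6 had a mean of at least 1 CPM, with SFN (440 CPM), ESRP1 (254 CPM) and CDH1 (138 CPM) the highest. OCLN, under 1 CPM in each library, and GRHL2, without a read, were named after their values were seen. VIM, a filament gene of mesenchymal and many cultured cells, had a mean of 648 CPM. Of 14 basal and myoepithelial markers 12 had a mean of at least 1 CPM, with LAMB3 and CAV1 among the highest, and of 15 luminal markers 5 did, with CD24, EPCAM and MUC1 the highest. The hormone receptors ESR1 and PGR, named after their values were seen, were under 1 CPM in each library. Fibroblast markers reached 1 CPM in 2 of 8 cases (DCN and COL1A1), leukocyte markers in 2 of 6 (CD68 and CD14) and endothelial markers in 0 of 5. The summed level of the basal markers was 3930 to 5842 CPM without 4sU, 4325 to 4588 CPM with DMSO and 4sU and 4478 CPM with IAA. That of the luminal markers was 803 to 1405, 1053 to 1517 and 1104 CPM, that of the fibroblast markers 13.5 to 18.2, 13.3 to 18.0 and 18.7 CPM, and that of the leukocyte markers 3.16 to 9.59, 3.83 to 9.68 and 12.1 CPM. The ranges with and without 4sU overlapped for each of these lists.

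The intervals of the members, apart from a second one of KRT8, match 3′ UTRs, and how far these resemble other loci differed between members. The second KRT8 interval (432 bases) had no annotated 3′ UTR of about this length and was not searched. It overlaps the first, with 185 against 177 reads in no 4sU replicate 1. The fits of KRT8 levels added the reads of both, so shared reads count more than once there. Coordinates are those of GENCODE on GRCh37 (hg19, the build in the submitters' processing notes). For 6 members an annotated 3′ UTR had exactly the length in the table. These were KRT5 (chr12:52908359-52908728, 370 bases, minus strand), KRT6B (chr12:52840435-52840976, 542 bases, minus), KRT8 (chr12:53290971-53291214, 244 bases, minus), KRT14 (chr17:39738531-39738689, 159 bases, minus), KRT15 (chr17:39669997-39670277, 281 bases, minus) and KRT19 (chr17:39679869-39679997, 129 bases, minus). For the other 4 the nearest annotated 3′ UTR was 1 to 4 bases shorter, at chr12:52880960-52881506 for KRT6A (minus), chr12:52642542-52642705 for KRT7 (plus), chr17:39775694-39775848 for KRT17 (minus) and chr12:53346624-53346684 for KRT18 (plus). A BLAST search of GRCh37 found no other locus with at least 90% identity over at least 50 bases for KRT5, KRT6A, KRT6B, KRT7 and KRT15. The longest other match was at 88.4% identity for KRT6A and at 84.5% for KRT6B, below this minimum, and its locus was not recorded. No match of KRT6A to another locus, that of KRT6B included, reached the minimum. The genes of the near-identical proteins KRT6A and KRT6B thus differ to that degree in the part that was read. KRT18 had 63 such loci, 5 of them at 100%, KRT8 had 7, KRT17 had 3, all pseudogenes, and KRT14 and KRT19 had 1 each. Reads of these 5 genes can be shared with such copies, depending on how the authors counted reads with several matches, and their values are uncertain to that degree. The KRT18 interval is also the shortest at 62 bases, with 10 T positions in the annotated part, against 172 in that of KRT6A.

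KRT6A and KRT5, both type II keratins of basal or activated epithelium, carried most of the reads of the 10 genes, while their relatives KRT14, KRT15 and KRT19 were close to absent. KRT6A was at 1202, 1968 and 1750 CPM without 4sU, at 1877, 2293 and 2147 CPM with DMSO and 4sU and at 1848 CPM with IAA. It held between 43.6% and 60.7% of the reads of the 10 genes in a library. The lowest value was that of no 4sU replicate 1, and the IAA value lay just under the DMSO 4sU libraries. KRT5, the basal type II keratin, was at 679, 632 and 519 CPM without 4sU, at 611, 709 and 701 CPM with DMSO and 4sU and at 640 CPM with IAA, so that its groups overlapped and its IAA value lay inside the DMSO 4sU range of CPM.

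KRT14, the usual partner of KRT5, was at 10.6, 3.84 and 3.63 CPM without 4sU, at 4.89, 3.91 and 5.38 CPM with DMSO and 4sU and at 4.49 CPM with IAA. These values rest on 69 to 215 reads, and the highest was that of no 4sU replicate 1. The KRT5 to KRT14 ratio of CPM ranged from 63.9 in that library to 181 in DMSO 4sU replicate 2. KRT15, a type I keratin of basal and progenitor cells, was at 3.02, 1.34 and 1.79 CPM without 4sU, at 2.63, 1.25 and 1.64 CPM with DMSO and 4sU and at 3.99 CPM with IAA. With 30 to 80 reads in a library it was too low for its conversion rate to be compared. KRT19, a small type I keratin of luminal cells, had 1 read in DMSO 4sU replicate 2 and none in the other 6 libraries. A count of 0 allows up to 3 reads, which is at most 0.158 CPM in the shallowest library and covers counting error only.

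Among the remaining members, KRT17 had the most reads of the type I members. It is a partner of KRT6A in activated epithelium and was at 156, 219 and 168 CPM without 4sU, at 349, 228 and 271 CPM with DMSO and 4sU and at 299 CPM with IAA. Each library with DMSO and 4sU was above each library without 4sU. KRT6B, the close relative of KRT6A, was at 92.1, 101 and 88.7 CPM without 4sU, at 81.6, 93.4 and 119 CPM with DMSO and 4sU and at 67.6 CPM with IAA, the lowest of the 7 libraries. The KRT6A to KRT6B ratio of CPM was lowest in no 4sU replicate 1 (13.0) and highest with IAA (27.3).

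Of the simple epithelial keratins, KRT7 was the most abundant, at 516, 289 and 298 CPM without 4sU, at 479.6, 350.1 and 396 CPM with DMSO and 4sU and at 387 CPM with IAA. In both groups replicate 1 was the highest, and the groups overlapped. KRT8 (its 244-base interval) was at 8.75, 14.4 and 17.3 CPM without 4sU, at 32.2, 14.6 and 26.8 CPM with DMSO and 4sU and at 27.0 CPM with IAA. KRT18, its partner, was at 90.6, 67.6 and 64.4 CPM without 4sU, at 99.7, 86.6 and 75.4 CPM with DMSO and 4sU and at 94.5 CPM with IAA. The KRT18 to KRT8 ratio of CPM varied from 2.81 in DMSO 4sU replicate 3 to 10.4 in no 4sU replicate 1, the library with the lowest KRT8.

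**Figure D1:**
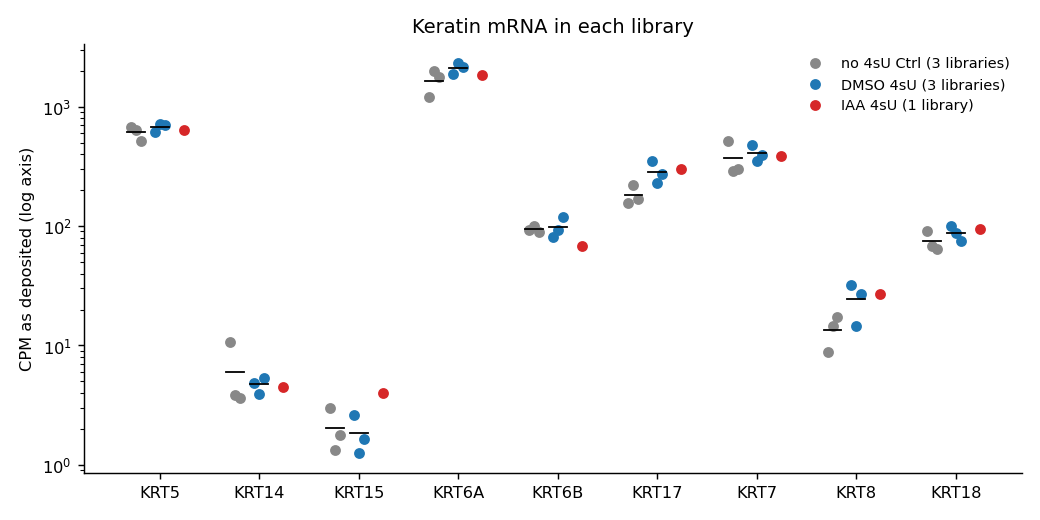
Total mRNA of 9 keratins in each library, as deposited CPM on a log axis. Points are libraries (grey no 4sU Ctrl, blue DMSO 4sU, red the single IAA 4sU library), black bars are means of 3, and KRT19, with 1 read in all libraries together, is not drawn. KRT6A lies between 1202 and 2293 CPM, and KRT14 and KRT15 lie at or under 10.6 CPM.

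Levels of different genes were compared as CPM per kilobase of the interval in DMSO 4sU libraries. The order was KRT6A (3836 ± 384, SD, n = 3), KRT7 (2432 ± 391), KRT5 (1822 ± 147), KRT17 (1799 ± 390), KRT18 (1407 ± 197), KRT6B (181 ± 35.4), KRT8 (101 ± 36.98), KRT14 (29.7 ± 4.68), KRT15 (6.55 ± 2.53) and KRT19 (0.108 ± 0.186, from 1 read). The ranges of the neighbours KRT5 and KRT17 overlapped, as did those of KRT17 and KRT18, and those of the other neighbours did not. Reads from 3′ end libraries need not grow with the interval, and in CPM without division by length KRT5 came before KRT7 and KRT6B before KRT18. In CPM the 5 type II keratins together exceeded the 5 type I keratins by 6.76 to 11.3 times in each of the 7 libraries. Similar loci elsewhere were found for KRT14, KRT17, KRT18 and KRT19 among the type I members and for KRT8 alone among type II. Whether reads shared with such loci moved this ratio was not tested, and other keratins such as KRT81 are not in these sums. In bulk samples, fewer cells of a type and less mRNA per cell cannot be told apart.

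The 4sU pulse raised the conversion rate of most keratins that could be tested, most of all that of KRT18 and least that of KRT6B. Of the 10 genes, 7 had at least 200 reads on average over the 6 libraries without IAA, which was required for a rate to be tested. In all 7 the DMSO 4sU libraries lay above the no 4sU libraries without overlap, against 70.9% of the 7379 genes tested. 5 of the 7 passed the test (limma on the log2 of the rate plus 0.0005, with p-values adjusted over all genes tested and a threshold of 0.05), against 61.2% of all genes, so neither count stood out from the background. None was lower, as were 0.0813% of all genes. The median log2 difference was 1.01 over the 7 members and 1.14 over all genes.

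KRT18 rose from 0.0102%, 0.0443% and 0.0544% without 4sU to 0.223%, 0.441% and 0.256% with DMSO and 4sU, a log2 difference of 2.04 (standard error 0.34, limma adjusted p = 0.00353). Its labelled libraries also differed most among each other, with an SD of 0.117% around a mean of 0.307%. KRT7 rose from 0.0603%, 0.0886% and 0.0530% to 0.253%, 0.203% and 0.244%, a log2 difference of 1.28 (limma, standard error 0.24, adjusted p = 0.00515). KRT17 rose from 0.0942%, 0.108% and 0.0821% to 0.309%, 0.215% and 0.209%, by 1.01 (standard error 0.26, adjusted p = 0.0145). In 5 of the 7 members (KRT5, KRT6A, KRT6B, KRT7 and KRT17) replicate 1 was the highest of the DMSO 4sU libraries, as it was for the median of all genes.

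KRT6A rose from 0.0512%, 0.0556% and 0.0679% to 0.190%, 0.147% and 0.1465%, a log2 difference of 0.96 (limma, standard error 0.22, adjusted p = 0.00955). KRT5 rose from 0.0730%, 0.0956% and 0.0954% to 0.222%, 0.174% and 0.169%, by 0.79 (standard error 0.23, adjusted p = 0.0245). These 2, the members with the most reads, moved by less than 1 log2 unit on this scale, where the constant added to the rate understates differences. With a smaller constant of 0.0001 the limma differences were 1.32 for KRT6A and 1.02 for KRT5. Without a constant, the mean rate with DMSO and 4sU was 2.77 times that without 4sU for KRT6A and 2.14 times for KRT5. 2 members did not pass the test. KRT8 had 0%, 0.194% and 0.119% without 4sU and 0.314%, 0.377% and 0.302% with DMSO and 4sU in its 244-base interval, a log2 difference of 1.56 over its intervals (standard error 0.58, adjusted p = 0.0506), and its unlabelled values rest on 177 to 329 reads. KRT6B had 0.0442%, 0.0361% and 0.0619% without 4sU and 0.0830%, 0.0703% and 0.0774% with DMSO and 4sU, a log2 difference of 0.39 (standard error 0.22, adjusted p = 0.150). Leaving out any 1 replicate number left 2 of the 7 past the threshold: KRT18 in each case, with KRT7 without replicate 1 or 2 and with KRT6A without replicate 3. KRT5 and KRT17 passed in none of these 3 fits, in which fewer libraries remained.

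The mean rate with DMSO and 4sU minus the mean rate without 4sU is a difference per T position and not the share of new molecules. It was 0.271 percentage points for KRT18, 0.220% for KRT8 over its intervals, 0.166% for KRT7, 0.149% for KRT17, 0.103% for KRT6A, 0.101% for KRT5 and 0.0295% for KRT6B. The median of the 7368 genes was 0.140%. The 3 simple epithelial keratins thus lay above this median, at percentiles 74.4, 68.0 and 57.1 of all genes. KRT17 lay at percentile 53.0, KRT6A and KRT5 at 37.7 and 36.8 and KRT6B at 8.0. In DMSO 4sU replicate 3 the rates of KRT7, KRT8 and KRT18 were all above those of the other 4 members, while in replicate 1 KRT17 (0.309%) was above KRT7 (0.253%) and KRT18 (0.223%), and in replicate 2 KRT17 (0.215%) was above KRT7 (0.203%). Whether simple and basal keratins differed was not tested.

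KRT6A and KRT6B, whose 3′ UTRs had no other match at the minimum of the search, had unequal rates in the DMSO 4sU libraries. In the libraries without 4sU the KRT6A rate was 1.16, 1.54 and 1.10 times that of KRT6B, and in the DMSO 4sU libraries it was 2.29, 2.09 and 1.89 times that of KRT6B. The 2 sets of ratios did not overlap. How often ratios of other gene pairs separate in this way was not computed. With IAA the ratio was 1.095, the lowest of the 7 libraries and just under the lowest unlabelled one (1.097), with KRT6A at 0.128% and KRT6B at 0.117%.

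**Figure D2:**
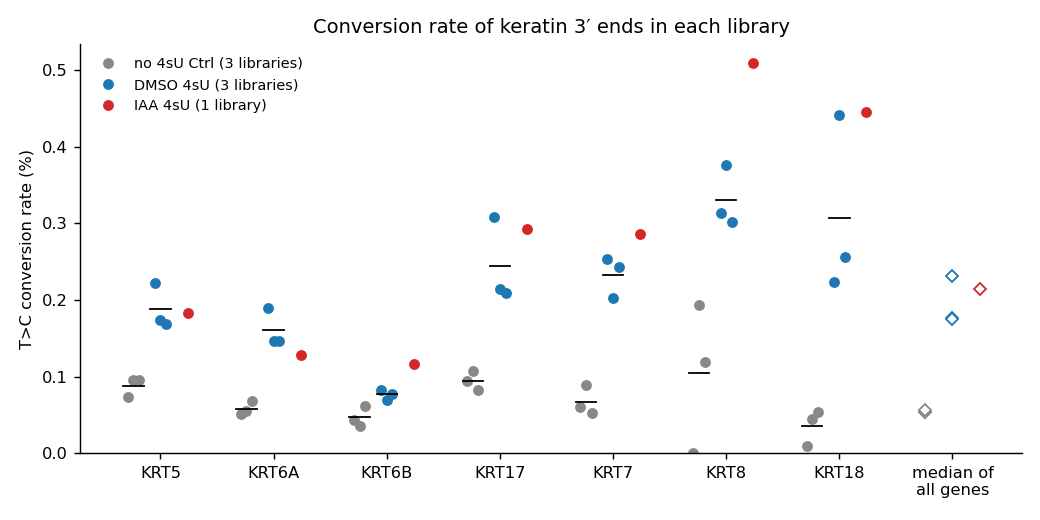
T>C conversion rate in percent of 7 keratins in each library, with KRT14, KRT15 and KRT19 left out for low reads. Points are libraries (grey no 4sU Ctrl, blue DMSO 4sU, red the single IAA 4sU library) and black bars are means of 3, and open diamonds at the right give the median of all genes in each library. For KRT18 the DMSO 4sU libraries lie between 0.223% and 0.441%, and for KRT6B between 0.0703% and 0.0830%.

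The rate without 4sU, which holds sequencing errors and differences from the reference, was also unequal. Its mean lay at percentile 90.9 of all genes for KRT8, 88.5 for KRT17, 85.2 for KRT5 and 16.2 for KRT18. KRT14, under the read minimum, had 0.151%, 0.0946% and 0.115% without 4sU, 0.299%, 0.699% and 0.0772% with DMSO and 4sU and 0.334% with IAA, so its labelled libraries lay on both sides of the unlabelled ones.

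**Figure D3:**
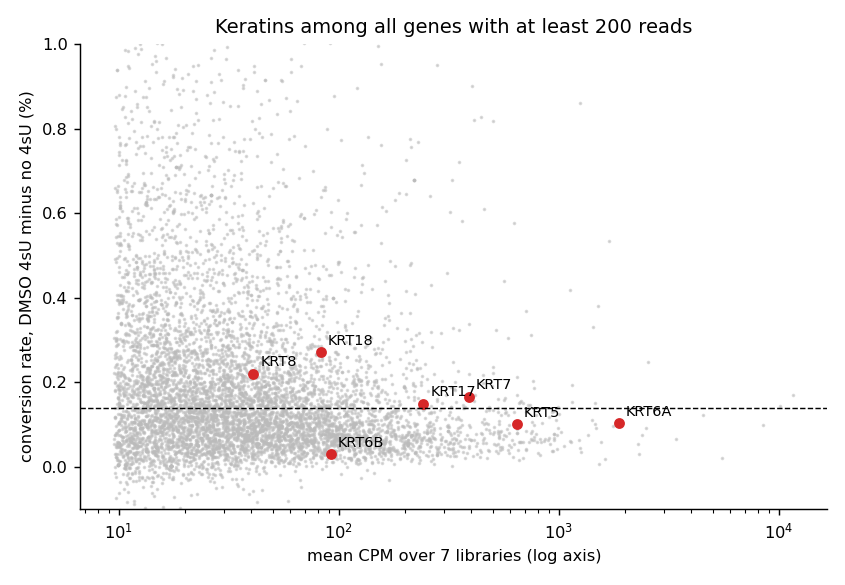
Mean rate with DMSO and 4sU minus mean rate without 4sU, in percentage points, against mean CPM on a log axis, for 7368 genes (grey) and 7 keratins (red, KRT8 at the sum of its 2 overlapping intervals); 348 genes lie outside the vertical axis. KRT18 (0.271%) lies above the dashed median of 0.140% and KRT6B (0.0295%) below it.

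No keratin passed the test of total mRNA between the groups with and without 4sU. 9 of the 10 genes were high enough to be tested, and 0 of the 9 were called (limma on log2(CPM + 1), adjusted p under 0.05), against 1.8% of 11528 genes, all of them lower with 4sU. edgeR and DESeq2 on the recovered reads and the fit with the replicate number as a block also called 0 of the 9. At an unadjusted p under 0.05 (limma) there was 1 member, KRT17, which was higher with 4sU. Of all genes 10.1% reached this in either direction, and 1.85% were higher. KRT17 had a log2 difference of 0.57 (standard error 0.21, limma adjusted p = 0.368), and it was the member whose groups did not overlap, as was the case, in the same direction, for 10.3% of all genes. No member was lower without overlap, against 9.12% of genes, or lower at an unadjusted p under 0.05, against 8.23%. KRT8 had 0.74 (standard error 0.33, adjusted p = 0.498) and KRT6A 0.32 (adjusted p = 0.751). For KRT5 the difference was 0.08, with a 95% interval from -0.28 to 0.45, and for KRT7 it was 0.13, with an interval from -0.35 to 0.61. The median over the 9 members was 0.13 and that over all genes 0.01, and 6 of the 9 were above 0. In this unpaired fit the 95% intervals, which are not adjusted for the number of genes, covered 0 for each member apart from KRT17. KRT17 did not pass after adjustment. Same-numbered samples deviated together in total mRNA. Within replicate numbers 4 of 9 members (KRT6A, KRT8, KRT17 and KRT18) had higher deposited CPM with 4sU in 3 of 3 pairs. KRT5, KRT7 and KRT14 did in 2 of 3, KRT6B in 1 of 3 and KRT15 in 0 of 3. The share of all genes with such pairs was not computed, and these CPM had no TMM scaling, so no rise is read from this count. The summed CPM of the 10 genes, also without TMM scaling, did not overlap, at 2758 to 3296 without 4sU and 3538 to 3780 with DMSO and 4sU. KRT6A, whose own groups overlapped, held 43.6% to 60.7% of this sum. How often sums of other genes separate in this way was not computed. The fitted differences depended on replicate 1. Without it that of KRT8 was 0.21, that of KRT17 0.26, that of KRT6A 0.15, that of KRT5 0.19 and that of KRT7 0.23. Without replicate 2 that of KRT8 was 1.15 and that of KRT17 0.87, and without replicate 3 that of KRT5 was 0.0030 and that of KRT7 0.08.

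The IAA comparison asks how the keratins stood after JUN, a transcription factor of the AP-1 family, was removed for a short time. A gene was called where the IAA library differed from the DMSO 4sU mean by at least 1 log2 unit and lay outside the range of the 3 DMSO 4sU libraries. In total mRNA 0 of 9 keratins were called, against 0.209% of 11474 genes, and 4 of 9 lay outside the range, against 41.3% of genes. After TMM scaling KRT6B was lower than the DMSO 4sU mean by 0.60 on the log2 scale, KRT6A by 0.27 and KRT5 by 0.16, and KRT15 was higher by 0.77. KRT15 had 80 reads in the IAA library and 56, 30 and 33 in the DMSO 4sU libraries. The others were inside the range, with log2 differences of -0.15 for KRT7, 0.11 for KRT8, -0.13 for KRT14, 0.02 for KRT17 and 0.04 for KRT18. Against DMSO 4sU replicate 1 alone, the nearest library, the log2 differences were -0.34 for KRT6B, -0.10 for KRT6A, -0.01 for KRT5 and 0.40 for KRT15. Without that replicate they were -0.72, -0.35, -0.23 and 0.97.

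Conversion rates were centred on the median of all genes in each library before the IAA library was compared. 0 of 7 keratins were called, against 11.2% of 7368 genes, and 5 of 7 lay outside the range of the DMSO 4sU libraries, against 49.5% of genes. KRT6A was lower by 0.37 on the log2 scale and KRT5 by 0.15, while KRT8 was higher by 0.44, KRT6B by 0.27 and KRT17 by 0.11. KRT18 (0.39) and KRT7 (0.12) lay inside the range. The KRT18 value was 0.12 without DMSO 4sU replicate 1 and 0.70 without replicate 2, and that of KRT7 was 0.07 without replicate 1 and 0.21 without replicate 3. Without centring KRT5 stood at -0.02, KRT6A at -0.24 and KRT17 at 0.24. With the rate multiplied by CPM, KRT6A stood at -0.74, KRT5 at -0.34 and KRT6B at -0.15, so that KRT6A was lower under each of these settings and KRT6B changed sign.

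**Figure D4:**
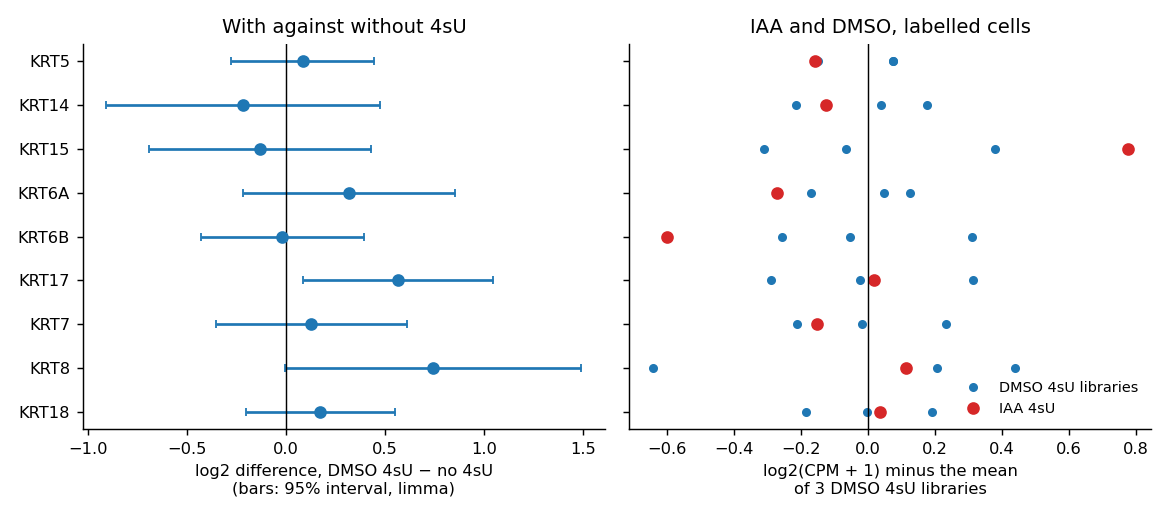
Total mRNA of 9 keratins. Left, log2 difference of DMSO 4sU against no 4sU (points) with 95% intervals from limma (bars). These intervals are not adjusted for the number of genes, and that of KRT17 lies above 0. Right, the single IAA library (red) and the DMSO 4sU libraries (blue) as log2 differences from the DMSO 4sU mean, where KRT6B (-0.60) and KRT15 (0.77) lie farthest outside the DMSO 4sU libraries.

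Of 45 other keratins looked up, 43 were in the table, 5 had a mean of at least 1 CPM and 28 had no read. KRT81, a type II keratin of hair, was at 907, 2046 and 2131 CPM without 4sU, at 3670, 1819 and 2951 CPM with DMSO and 4sU and at 3087 CPM with IAA. KRT6A spanned 1202 to 2293 CPM over the same libraries, so that KRT81 reached both lower and higher values. The groups of KRT81 overlapped (limma adjusted p = 0.624). KRT10, a type I keratin of differentiating epidermis, had a mean of 49.8 CPM, and its rate was 0.373% with IAA against 0.144% ± 0.0315 (SD, n = 3) with DMSO and 4sU, a centred log2 difference of 1.01. It was the 1 call among 3 of these keratins tested in the IAA rate, against 11.2% of all genes. In the 4sU comparison 2 of 3 tested in rate rose, against 61.2% of all genes, and 0 of 5 changed in total mRNA, against 1.8%.

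Of 18 desmosome and plakin genes, which anchor keratins at cell contacts, 15 had at least 1 CPM, led by PERP (551 CPM), DSP (168 CPM), the plakin that ties keratins to desmosomes, and DSC3 (153 CPM). With 4sU 9 of 13 rose in rate and 0 of 15 changed in total mRNA, against 61.2% and 1.8% of all genes. Of 16 other intermediate filament genes 6 had at least 1 CPM, with VIM, the filament of mesenchymal and many cultured cells, at 648 CPM and the nuclear lamins LMNA and LMNB2 at 91.3 and 56.1 CPM. 2 of 4 rose in rate and 0 of 6 changed in total mRNA.

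Among the basal markers 8 of 11 rose in rate with 4sU, against 61.2% of all genes, and 1 of 12 fell in total mRNA, against 1.8%. This was SNAI2, a transcription factor of basal mammary cells, at 48.2, 97.1 and 126 CPM without 4sU and 22.6, 18.8 and 26.8 CPM with DMSO and 4sU, a log2 difference of -1.92 (standard error 0.35, limma adjusted p = 0.0233). Of the luminal markers 2 of 4 rose in rate and 0 of 6 changed in total mRNA, and of the epithelial markers 3 of 6 and 0 of 6.

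The log2(CPM + 1) of KRT5 and KRT14 were averaged in each library, as were those of KRT8 and KRT18, although over the 7 libraries the members of a pair correlated with each other by 0.40 and 0.23. The genes most like the mean of KRT5 and KRT14 were MPV17 (Pearson r = 0.99), CCNK (0.99) and TIMM9 (0.98), and those most like the mean of KRT8 and KRT18 were THOP1, SLC16A9 and GRINA (each 0.99). These values describe 7 libraries of unequal depth, for which the labels give no batch, and were the highest among 7367 and 7366 genes.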

How the data were processed

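SLAM-Seq libraries (QuantSeq 3′ FWD) of 3 groups with 3 samples each were used. The authors deposited, for each 3′ UTR interval and sample, a T>C conversion rate as a fraction and a read signal called CPM. Per the labels reads were placed on hg19. All nonzero CPM were whole reads within a tolerance of 0.001, so counts were recovered from the deposited signal. The paper states 3 biological replicates, and the IAA 4sU columns, being identical, were used as 1 library. Of 56868 rows 97.7% matched a gene, and intervals were combined per gene.

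Rates (log2 after adding 0.0005) were compared in R 4.3.3 by limma 3.58.1 for genes with a mean of at least 200 reads, and levels on log2(CPM + 1) with TMM factors for genes with at least 1 CPM in 3 of 6 libraries. Fold changes on the log2(CPM + 1) scale are understated for low genes, and those in rate are understated by the added 0.0005. edgeR 4.0.16 and DESeq2 1.42.0 were run on recovered counts. Each fit was run on simulated data with 200 changed genes, 9-fold in rate or 3-fold in level. The fit of rates recovered 193, and each fit of levels recovered 200. Smaller changes and shifts between replicates were not simulated. Replicate numbers paired the samples in total mRNA (correlations of deviations 0.39, 0.32 and 0.36) but not in rate. The members and gene lists were chosen with earlier results of these data known. All members are named, and of the other lists up to 3 of the highest genes and those called, except items not reported here. Floors cover counting error only, and limma intervals the spread between libraries.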

Additional observations from a re-analysis of the deposited data

How the results depend on the processing

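The number of keratins labelled by 4sU was 5 of 7 tested. With a pseudocount of 0.002 and with the interval with most reads it became 6, as KRT8 passed (limma adjusted p = 0.0340 and 0.0393). It became 1 of 10 tested without the filter on reads, and 2 whichever replicate number was left out (range 2 to 2). Over all genes the rate calls were 4522 and fell to between 2717 and 3131 without 1 replicate. With the replicate block for the conversion rate, whose deviations correlated by 0.011, -0.0093 and 0.0086 between same-numbered samples, 5 keratins were called, KRT8 (adjusted p = 0.0456, limma) in place of KRT5 (adjusted p = 0.0632). In total mRNA the 0 calls among keratins held under each alternative run. The log2 difference of KRT6B, -0.02, changed sign with edgeR (0.0288), DESeq2 (0.0163), no TMM factors (0.0474), DESeq2 size factors (0.0114) and the interval with most reads (0.00641), and ranged from -0.143 to 0.0750 with 1 replicate number left out, positive without replicate 1 or 2. That of KRT14 ranged from -0.481 to 0.153, positive without replicate 1. The causes were not tested. Over all genes 208 were called in total mRNA, 416 with DESeq2, 0 without the filter, 258 with the replicate block, and 423, 26 and 34 without replicate 1, 2 and 3. With IAA 24 genes were called in total mRNA, 74 with a pseudocount of 0.25, and 112 and 15 without DMSO 4sU replicate 1 and 3. In the rate 823 were called, 275 with a pseudocount of 0.002 and 1341 with the rate multiplied by CPM. No paired analysis was possible for IAA because its single library has no known replicate number.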

Other observations

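SFN, an epithelial 14-3-3 protein, had a rate of 1.00%, 2.17% and 2.08% in the libraries without 4sU, at percentile 99.9 of all genes, and 2.58% ± 0.0643 (SD, n = 3) with DMSO and 4sU. The source of the rate without 4sU was not tested.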
